A study of Mus musculus with 4 samples.

Results

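The 31 genes described here encode the enzymes and transporters that take up glucose, split it to pyruvate and lactate, and route it through the pentose phosphate pathway. They were chosen by symbol from the 27998 genes listed in all 4 libraries, and each symbol matched a single gene identifier. The libraries held intrahepatic cells of male wild-type C57BL/6 mice, obtained at 8 weeks of age and then fed for 6 weeks. One group received a normal control diet (NCD, 2 libraries) and the other a methionine- and choline-deficient diet (MCD, 2 libraries), a common mouse model of steatohepatitis. All mice were wild type, and no gene, allele or further treatment distinguished the diets. Live CD45+ Ly6G- cells with intermediate CD11b were sorted from the liver and profiled with a droplet single-cell 3' assay that counts unique molecular identifiers (UMIs). The F4/80 level of the sort is low in the series text and high in the sample labels. The sources used here do not say if the cells of a library came from 1 mouse or several, so p-values measure the spread between these libraries only.

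Glycolysis turns glucose into pyruvate in the cytosol and yields ATP and NADH without oxygen. Lactate dehydrogenase regenerates NAD+ by reducing pyruvate to lactate, which leaves the cell through monocarboxylate transporters, whereas the pyruvate dehydrogenase complex commits pyruvate to the mitochondria. The pentose phosphate pathway branches off at glucose-6-phosphate and supplies NADPH and ribose. Monocytes and macrophages are known to raise glycolytic gene expression on inflammatory activation, and many of these genes are textbook targets of the hypoxia-inducible factor HIF-1.

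The libraries held 2783 and 2699 barcodes in NCD and 3349 and 3475 in MCD, of which 9609 barcodes in all passed the filter. Diet and depth separated together: retained cells had a median of 2173 and 2254 UMIs on NCD but 12038 and 12300 on MCD. Mitochondrial transcripts took 7.41% to 7.47% of the retained UMIs in NCD and 3.40% to 3.63% in MCD, and ribosomal protein transcripts 23.6% to 26.4% and 17.8% to 17.9%. No label gives a preparation batch, and batch and diet cannot be told apart. Pairs of libraries shared 24 retained barcode sequences in all. Clusters were given a name ending in "-like" from fixed marker lists, and 4 such classes (Ly6Chi monocyte-like, Ly6Clo monocyte-like, macrophage-like and lipid-associated macrophage-like) were summed into a monocyte and macrophage union of 4013 cells. The macrophage-like cells came from the NCD libraries (269 of 273) and the lipid-associated macrophage-like cells from the MCD libraries (608 of 609). The leading genes of the latter cluster held as many macrophage markers (the complement genes C1qa, C1qb and C1qc) as markers of its own name.

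Within the union the members took 0.215% and 0.217% of all UMIs in the NCD libraries and 0.627% and 0.567% in the MCD libraries. UMIs were then summed per library and compared by edgeR's quasi-likelihood test with Benjamini-Hochberg adjustment over all genes tested, at a threshold of 0.05. Of the 30 members that passed the filter on low counts, 18 rose in MCD, 1 fell and 11 did not pass the test. Among all 10879 genes tested, 21.2% were higher and 20.2% lower, so both directions were well populated. The members' median log2 difference (MCD minus NCD) was 0.82, against 0.02 over all genes tested. DESeq2 on the same sums called 17 members higher and 1 lower, beside 1551 higher and 1713 lower of the 10879 genes. When the TMM scaling was replaced by library totals, the median of all genes moved to 0.40 and the higher share of all calls from 51.2% to 79.1%, with 22 members higher and 1 lower. Eno2, a neuronal enolase, was the member under the filter, with 0 UMIs in both NCD libraries and with 24 and 7 in those of MCD.

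**Figure D1:**
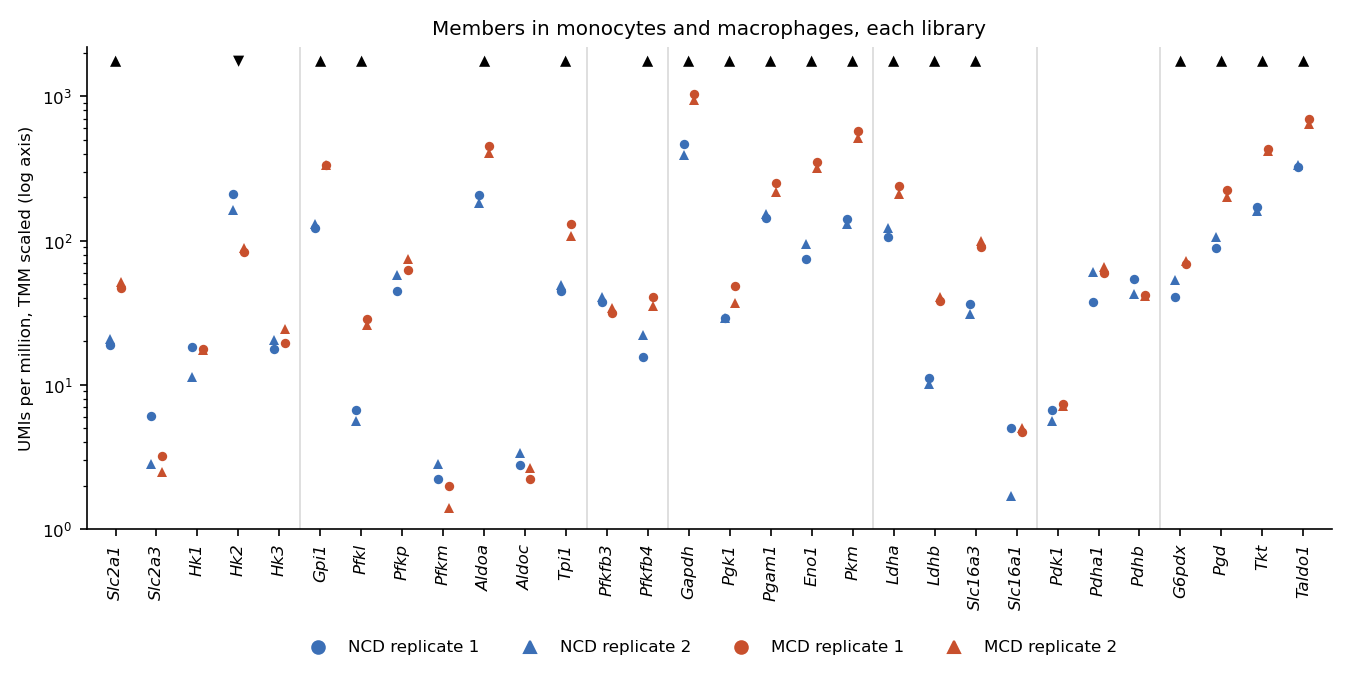
Level of each of the 30 tested members in the monocyte and macrophage union, in CPM (counts scaled to a common library total with TMM factors, log axis) with 1 point per library, grouped by role in the pathway; a triangle at the top marks a member past the threshold, pointing up for higher and down for lower in MCD. The MCD points stand above the NCD points for the 18 members that rose, and below them for Hk2.

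Several other measures moved with the diet in the same sums. The summed level of the macrophage list (14 of 15 markers measured) went from 0.220% to 0.242% of UMIs in NCD to 0.522% to 0.631% in MCD, that of the Kupffer cell list (14 of 14) from 0.0532% to 0.0647% to 0.147% in both MCD libraries. The lipid-associated macrophage list (16 of 16) stood at 0.204% to 0.218% and 0.547% to 0.597%, and the Ly6Chi monocyte list (14 of 15) at 1.62% to 1.72% and 2.82% to 3.37%. No marker of these 4 lists was at 0 in every library. Other lists were lower in MCD: the NK or innate lymphoid list (14 of 14) went from 0.0404% and 0.0523% to 0.00945% and 0.00883%, the interferon-activated list (14 of 14) from 0.148% and 0.115% to 0.0426% and 0.0636%, and the cDC2 list (12 of 12) from 0.0307% and 0.0275% to 0.0154% and 0.0200%. Across the 10858 tested genes with a value, the diet difference also rose with the GC content of the transcript's last 500 bases (Spearman's rho 0.400, genes not being independent). With that trend removed 18 members were higher and 2 lower, with a median difference of 0.62. Of the 10879 genes tested, 1721 were then higher and 1954 lower, with a median difference of -0.01. Without the lipid-associated macrophage-like cells, 18 members were higher and 1 lower, beside 22.2% and 21.4% of the genes tested. Among union cells of 3000 to 8000 UMIs, a window chosen after seeing the data in which both diets had cells, 25 members could be tested, of which 12 were higher and 1 lower. Of the 6084 genes tested there, 12.7% were higher and 15.1% lower. In that window the median cell devoted 0.217% and 0.218% of its UMIs to the members in NCD and 0.506% and 0.490% in MCD, although its median depth was still 3793 and 3814 against 5551 and 6415 UMIs. The part of depth, mitochondrial share and cell composition in the other calls was not tested.

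**Figure D2:**
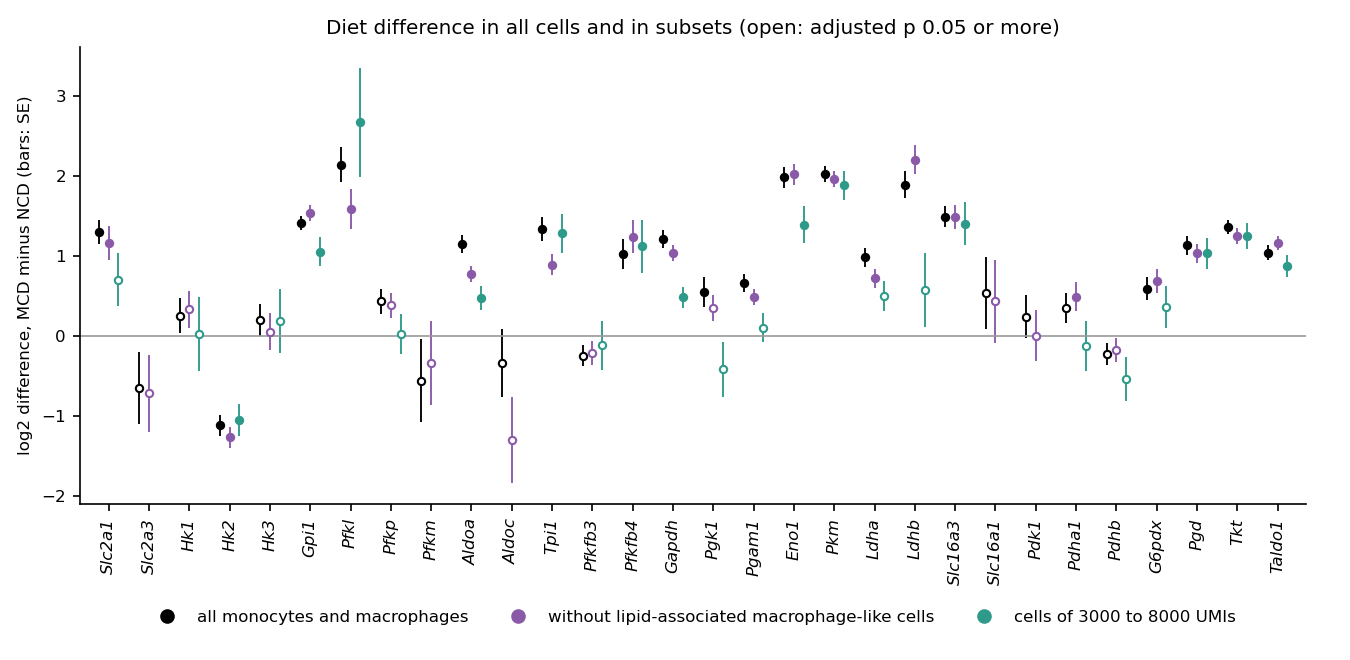
Log2 difference (MCD minus NCD, with SE; open points did not pass the threshold) of each member in the whole union, without the lipid-associated macrophage-like cells, and in union cells of 3000 to 8000 UMIs. Pkm stands at 2.02, 1.96 and 1.88, whereas Ldhb goes from 1.89 in the whole union to 0.57 in the depth window.

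Since many of the members moved in 1 direction, the bases before their transcription starts were read from RefSeq (GRCm38.p6), which held 30 of the 31 members. The letters ACGTG, a core bound by HIF-1, were searched on both strands in the 250 bases before every RefSeq start of a gene, including any stretch inside an exon of another transcript. They were found before 13 of the 30 members (43.3%) and before 18.5% of the 27025 genes of the table. The members' windows also had a median GC content of 60.2%, against 52.4% over all genes. The GC-rich letters GCGTG, searched as the core bound by the aryl hydrocarbon receptor, were found before 70.0% of members and 30.9% of all genes. Shares were 13.3% and 6.86% for CACGTG, the palindromic E-box, which contains ACGTG on both strands. They were 13.3% and 11.5% for TGACNNNGC, the antioxidant response core, and 3.33% and 5.16% for TGAGTCA, the AP-1 element. A match is a description of letters and not a bound site, and ACGTG does not cover every form of the HIF-1 core. The windows of 5 members are shown as examples and do not stand for the rest. Ldha, Slc16a3 and Pgk1 hold ACGTG and rose, Hk2 holds it and fell, and Tkt lacks it and rose. Slc2a1, Aldoa, Pgam1 and Pkm also hold it and rose, while Hk3, Pfkm, Pfkfb3, Slc16a1 and Pdhb hold it and did not pass. Gpi1, Pfkl, Tpi1, Pfkfb4, Gapdh, Eno1, Ldhb, G6pdx, Pgd and Taldo1 lack it and rose. A link between the letters and the diet difference was not tested. Each printed stretch stops before the first exon of the GENCODE annotation it runs into, so those of Slc16a3 and Tkt are shorter than the windows searched. Capitals mark ACGTG or its reverse complement.
Ldha, chr7:46845554-46845803, plus strand: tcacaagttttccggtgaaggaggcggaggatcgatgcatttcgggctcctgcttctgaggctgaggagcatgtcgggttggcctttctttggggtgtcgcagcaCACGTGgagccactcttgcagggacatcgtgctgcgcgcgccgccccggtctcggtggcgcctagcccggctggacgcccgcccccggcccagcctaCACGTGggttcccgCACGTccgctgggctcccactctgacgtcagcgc
Slc16a3, chr11:120948817-120949052, plus strand: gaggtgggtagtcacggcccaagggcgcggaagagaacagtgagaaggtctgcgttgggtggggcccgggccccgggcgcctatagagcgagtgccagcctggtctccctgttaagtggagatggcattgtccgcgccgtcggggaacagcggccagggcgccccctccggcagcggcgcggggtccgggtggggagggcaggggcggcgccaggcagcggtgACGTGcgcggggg
Pgk1, chrX:106186850-106187099, plus strand: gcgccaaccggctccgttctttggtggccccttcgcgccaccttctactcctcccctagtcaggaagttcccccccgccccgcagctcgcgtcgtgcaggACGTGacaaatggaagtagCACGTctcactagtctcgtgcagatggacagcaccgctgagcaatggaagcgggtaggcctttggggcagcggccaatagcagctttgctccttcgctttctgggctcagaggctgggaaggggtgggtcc
Hk2, chr6:82774455-82774704, minus strand: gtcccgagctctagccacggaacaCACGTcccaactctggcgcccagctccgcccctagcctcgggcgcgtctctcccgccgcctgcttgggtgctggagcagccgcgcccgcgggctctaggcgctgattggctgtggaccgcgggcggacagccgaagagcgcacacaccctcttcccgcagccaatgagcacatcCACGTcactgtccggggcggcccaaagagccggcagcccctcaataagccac
Tkt, chr14:30548881-30549001, plus strand: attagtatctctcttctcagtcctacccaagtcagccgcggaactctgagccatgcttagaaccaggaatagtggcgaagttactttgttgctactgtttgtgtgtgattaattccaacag
The Ldha window holds 5 matches counted over both strands, 2 of its sites being CACGTG. Pgk1 and Hk2 hold 2 each. The printed Slc16a3 stretch holds 1 of the 2 in its full window, and the 121 bases of Tkt hold 0, as does its full window. The full Tkt window does hold 1 match of GCGTG. The Ldha, Slc16a3 and Tkt windows lie inside the gene spans of the GENCODE annotation, where another transcript starts further upstream, while those of Pgk1 and Hk2 adjoin the annotated gene.

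Glucose uptake and phosphorylation was the role in which members moved in opposite directions: 1 of 5 rose, 1 fell and 3 did not pass. Slc2a1 (chr4:119108711-119137983), the widely expressed glucose transporter GLUT1, was at 18.9 and 20.9 CPM in the NCD libraries and 46.8 and 51.3 CPM in the MCD libraries. Its log2 difference was 1.30 ± 0.15 (SE; adjusted p = 4.29e-04), and the diets did not overlap. In cells of 3000 to 8000 UMIs Slc2a1 did not pass (0.70, adjusted p = 0.141). Hk2 (chr6:82725025-82774454), the inducible hexokinase that traps glucose in the cell as glucose-6-phosphate, was the single member that fell. It was at 212 and 162 CPM in NCD and 83.3 and 89.4 CPM in MCD, a log2 difference of -1.12 ± 0.13 (adjusted p = 4.69e-04), again without overlap. So transcripts of the transporter and of the hexokinase that follows it in the pathway went in opposite directions in the same summed cells. The log2 differences of Hk1, the constitutive hexokinase, and Hk3, a myeloid hexokinase, were 0.25 ± 0.22 and 0.20 ± 0.20, with overlapping diets. Slc2a3, the high-affinity transporter GLUT3, had 5 to 58 UMIs per library and a log2 difference of -0.65 ± 0.45.

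In upper glycolysis, from glucose-6-phosphate to the triose phosphates, 4 of 7 members rose and none fell. Gpi1 (chr7:34201330-34230336), the isomerase that makes fructose-6-phosphate, was at 122 and 129.7 CPM in NCD and 336 and 334 CPM in MCD, a log2 difference of 1.41 ± 0.09 (adjusted p = 3.16e-05). Pfkl (chr10:77986947-78010083), the liver-type subunit of phosphofructokinase, the committing enzyme of glycolysis, was at 6.67 and 5.64 CPM in NCD and 28.6 and 25.9 CPM in MCD. That was a log2 difference of 2.14 ± 0.22 (adjusted p = 2.29e-04), the largest of the 30 tested members, from 12 and 10 UMIs in the NCD libraries. The Pfkl difference was 1.58 without the lipid-associated macrophage-like cells, 2.73 at the coarser clustering (Leiden resolution 0.5) and 1.55 with the GC trend removed. At the coarser clustering no cluster was named macrophage-like. The lipid-associated macrophage-like cluster held 1030 MCD cells in place of 608, so values at that resolution describe another set of cells. In cells of at most 5% mitochondrial UMIs Pfkl did not pass (1.88, adjusted p = 0.379). Cells were clustered and named anew at that limit. The union then rested mainly on a cluster of 86 Ly6Chi monocyte-like NCD cells. Its MCD cells came mainly from clusters of 900 Ly6Chi and 371 Ly6Clo monocyte-like cells. The cluster with most lipid-associated macrophage markers went unnamed and was left out. The median difference over all genes was 0.35 there, so all values at this limit describe another set of cells. Aldoa (chr7:126795234-126800751), the main aldolase of most tissues, went from 207 and 182 CPM to 453 and 407 CPM, and Tpi1 (chr6:124810586-124814296), which interconverts the trioses, from 44.4 and 49.6 CPM to 130.0 and 107 CPM. Their log2 differences were 1.15 ± 0.11 and 1.33 ± 0.15. That of Aldoa was 0.47 in cells of 3000 to 8000 UMIs and 0.45 with the GC trend removed. Among cells with at most 5% mitochondrial UMIs Tpi1 did not pass (0.24, adjusted p = 0.757), while Gpi1 stood at 2.04. For each of these 4 genes both MCD libraries lay above both NCD libraries. Pfkp, the platelet-type subunit, did not pass at 0.43 ± 0.16 (adjusted p = 0.0604), although its diets did not overlap, and it passed without MCD replicate 1 (0.54, adjusted p = 0.00317 by edgeR). With the replicate number as a block its adjusted p was 0.00802 by edgeR. Pfkp also passed under library totals (0.81, adjusted p = 0.00369 by edgeR) and over all retained cells (0.63, adjusted p = 0.00422 by edgeR). It passed as well with equal weight to each class (0.54) and at the coarser clustering (0.59). Clustering without the members (0.45) and adding the largest unnamed cluster (0.55) gave a call too. Pfkm and Aldoc were covered by 4 to 6 UMIs per NCD library and did not pass.

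The PFKFB enzymes set the level of fructose bisphosphate that activates phosphofructokinase. Pfkfb4 (chr9:108991778-109032228) was at 15.6 and 22.0 CPM in NCD and 40.7 and 35.2 CPM in MCD, a log2 difference of 1.02 ± 0.19 (adjusted p = 0.00415). Without NCD replicate 1 the difference was 0.81 with an adjusted p of 0.0532, and at most 5% mitochondrial UMIs it was 3.22. Pfkfb3, the more kinase-active isozyme, was at 37.8 and 40.6 CPM in NCD and 31.6 and 34.3 CPM in MCD and did not pass (-0.25 ± 0.13, adjusted p = 0.170). It passed as lower in cells of at most 20% mitochondrial UMIs (-0.34, adjusted p = 0.0398) and with the GC trend removed (-0.43, adjusted p = 0.0409). Its sign turned to 0.13 under library totals, and over all retained cells it passed as higher (0.36, adjusted p = 0.0469).

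Every tested member of lower glycolysis, the ATP-yielding steps from triose phosphate to pyruvate, rose (5 of 5). Pkm (chr9:59656368-59679375), pyruvate kinase, which makes the last ATP of the pathway, was at 141 and 130.2 CPM in NCD and 579 and 517 CPM in MCD, a log2 difference of 2.02 ± 0.10 (adjusted p = 1.09e-05). Eno1 (chr4:150236721-150248879), the enolase of most cells, went from 75 and 95.3 CPM to 352 and 321 CPM, a log2 difference of 1.98 ± 0.13 (adjusted p = 2.91e-05). Both genes thus stood about 4.04-fold and 3.95-fold higher. The Eno1 difference was 1.39 in cells of 3000 to 8000 UMIs, 1.36 with the GC trend removed and 2.92 at most 5% mitochondrial UMIs. Gapdh (chr6:125161715-125166467), often taken as a constant reference gene, was at 467 and 391 CPM in NCD and 1040 and 945 CPM in MCD, a log2 difference of 1.21 ± 0.11. The Gapdh difference was 0.48 in cells of 3000 to 8000 UMIs and 0.52 with the GC trend removed. Pgam1, phosphoglycerate mutase, went from 144 and 153 CPM to 251 and 217 CPM (0.66 ± 0.11, adjusted p = 0.00232), but stood at 0.10 in cells of 3000 to 8000 UMIs and did not pass there (adjusted p = 0.718). The smallest rise was that of Pgk1, phosphoglycerate kinase, at 28.9 and 29.3 CPM in NCD and 48.4 and 37.1 CPM in MCD (0.55 ± 0.19, adjusted p = 0.0446). The Pgk1 call held in 10 of 19 alternative analyses. It was lost without NCD replicate 1 (log2 difference 0.57), NCD replicate 2 (0.59) or MCD replicate 1 (0.33), by DESeq2 (adjusted p = 0.105) and with no filter (adjusted p = 0.0657). Equal weight to the Ly6Chi and Ly6Clo classes, the only union classes with 20 cells or more in every library, ended it too (adjusted p = 0.0753). It was also lost without the lipid-associated macrophage-like cells (0.35, adjusted p = 0.111), at most 5% mitochondrial UMIs (0.03, adjusted p = 0.993) and in cells of 3000 to 8000 UMIs (-0.42, adjusted p = 0.394). Several of these genes have processed pseudogenes and Eno1 a near-identical copy, and how reads shared with them were assigned is not stated in the sources.

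Of the lactate and monocarboxylate genes, 3 of 4 rose. Ldha (chr7:46841475-46855627), the lactate dehydrogenase subunit that favours lactate formation, was at 106 and 123 CPM in NCD and 239.8 and 212 CPM in MCD, a log2 difference of 0.98 ± 0.12 (adjusted p = 4.88e-04). Ldhb (chr6:142490249-142507957), the subunit that favours the reverse reaction, went from 11.1 and 10.1 CPM to 38.0 and 40.9 CPM, a log2 difference of 1.89 ± 0.17 (adjusted p = 1.49e-04). Both subunits therefore rose in the whole union, but neither passed in cells of 3000 to 8000 UMIs (Ldha 0.50, adjusted p = 0.0656; Ldhb 0.57, adjusted p = 0.397). At most 5% mitochondrial UMIs Ldha stood at 0.46 (adjusted p = 0.334) and Ldhb at 3.27. Slc16a3 (chr11:120948480-120960868), the lactate exporter MCT4, was at 36.1 and 31 CPM in NCD and 89.6 and 98.8 CPM in MCD, a log2 difference of 1.49 ± 0.13 (adjusted p = 1.38e-04). The Slc16a3 difference was 0.77 with the GC trend removed, and at most 5% mitochondrial UMIs it did not pass (0.84, adjusted p = 0.228). Slc16a1, the transporter MCT1, had 3 to 92 UMIs per library, overlapping diets and no call (0.53 ± 0.45).

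None of the 3 pyruvate dehydrogenase genes passed the edgeR test, also at an unadjusted p under 0.05 (0 higher and 0 lower). Pdha1 and Pdhb, which encode the catalytic subunits, had log2 differences of 0.35 ± 0.19 and -0.23 ± 0.14, and Pdk1, a kinase that switches the complex off, 0.24 ± 0.27. After thinning to equal totals Pdhb passed as lower (-0.54, adjusted p = 0.0280 by edgeR). Pdha1 was at 37.8 and 60.9 CPM in NCD and 59.9 and 65.6 CPM in MCD. The NCD libraries thus lay further apart than the diet means of 49.3 and 62.8 CPM. Pdha1 passed in 7 of the 19 alternative analyses, for example without NCD replicate 2 (0.75, adjusted p = 0.0323) and without MCD replicate 1 (0.39, adjusted p = 0.0415).

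All 4 pentose phosphate members rose. Tkt (chr14:30548359-30574720), transketolase of the branch without oxidation, was at 171 and 161 CPM in NCD and 429 and 419 CPM in MCD, a log2 difference of 1.36 ± 0.09 (adjusted p = 3.35e-05). Taldo1 (chr7:141392199-141402968), transaldolase of the same branch, went from 322 and 337 CPM to 702 and 648 CPM (1.04 ± 0.09, adjusted p = 1.00e-04). Pgd (chr4:149149991-149166771), an NADPH-making dehydrogenase of the oxidative branch, was at 88.3 and 106 CPM in NCD and 224 and 200.5 CPM in MCD (1.13 ± 0.12, adjusted p = 2.97e-04). Libraries of the same diet lay close together for all 3 genes. G6pdx, the entry enzyme of the pathway, rose least, from 40.5 and 53.6 CPM to 68.6 and 72.6 CPM (0.59 ± 0.14, adjusted p = 0.0134), and it passed in 15 of 19 alternative analyses. Leaving out NCD replicate 1 ended the G6pdx call (0.42, adjusted p = 0.0909). Removing the GC trend (0.28, adjusted p = 0.174), keeping cells of 3000 to 8000 UMIs (0.36, adjusted p = 0.33) and keeping cells of at most 5% mitochondrial UMIs (1.31, adjusted p = 0.0848) ended it as well.

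Of the 19 members past the threshold, 8 passed it in the same direction in each of the 19 alternative analyses: Gpi1, Aldoa, Gapdh, Eno1, Pkm, Pgd, Tkt and Taldo1. Hk2 passed in 18 of them and missed at most 5% mitochondrial UMIs per cell, where the log2 difference was -0.89 (adjusted p = 0.0518).

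Because isozymes of a family catalyse 1 step, the share of each isozyme in its family's UMIs was compared between diets, which does not depend on the scaling between libraries. Over 8 families and 18 shares, the smallest two-sided p that an exact permutation test over 2 and 2 libraries can give is 0.33, raw or adjusted, so the shares are a description. Intervals in this paragraph are Wilson 95% intervals and cover counting error only. In 4 families a share moved by more than 10 percentage points. Hk2 made up 85.4% (81.8% to 88.4%) and 83.7% (79.5% to 87.2%) of hexokinase UMIs in the NCD libraries and 69.1% (67.1% to 71.0%) and 68.2% (66.3% to 70.0%) in the MCD libraries. The NCD and MCD intervals of this share did not overlap. Pfkl went from 12.5% and 8.55% of phosphofructokinase UMIs to 30.7% and 25.3%, while Pfkp went from 83.3% and 87.2% to 67.2% and 73.3%. Without the lipid-associated macrophage-like cells the difference of means was 10.8 points in place of 17.5 for Pfkl and -8.88 in place of -15.0 for Pfkp. Among the PFKFB enzymes Pfkfb4 made up 29.2% and 35.1% in NCD and 56.2% and 50.7% in MCD. Slc2a1 made up 75.6% and 88.1% of the UMIs of both glucose transporters in NCD, from only 45 and 42 UMIs, and 93.6% and 95.4% in MCD, and without NCD replicate 1 the difference of means was 6.38 points in place of 12.6. Diets did not overlap in these 4 families. The Ldhb share was 9.48% and 7.59% in NCD and 13.7% and 16.2% in MCD, a difference of 6.40 points that was 11.8 points without the lipid-associated macrophage-like cells. Over all retained cells the difference of means was 12.4 points in place of 21.3 for Pfkfb4, 24.6 for Slc2a1 and 3.25 for Ldhb.

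**Figure D3:**
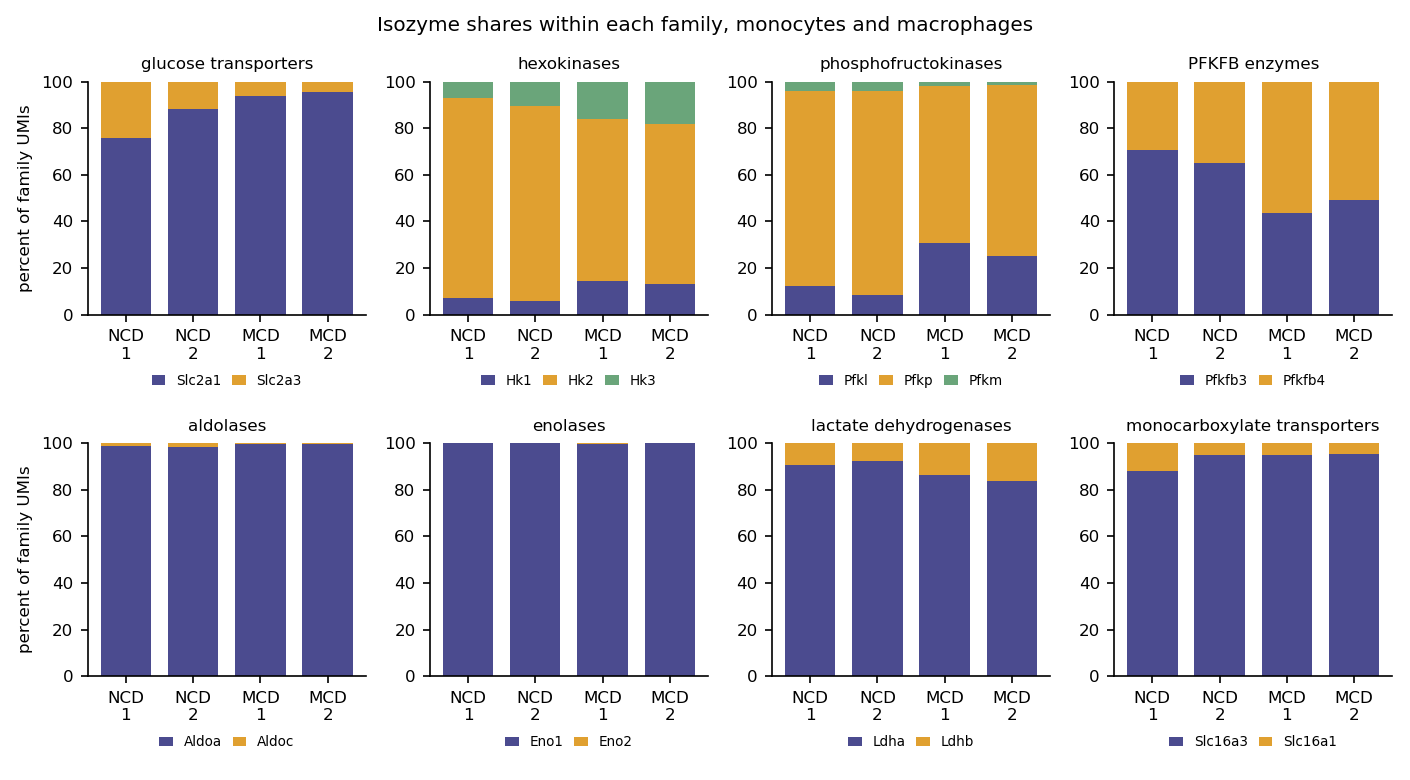
Share of each isozyme in the UMIs of its family (percent), by library, in the monocyte and macrophage union, with 1 stacked bar per library. Hk2 makes up 85.4% and 83.7% of hexokinase UMIs in NCD and 69.1% and 68.2% in MCD, and Pfkl and Pfkfb4 take larger shares in both MCD libraries.

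The members were next followed by class, in every class represented by 20 cells or more per library. These comparisons take their cells from the same 4 libraries, and calls in different classes are not independent. Except for eosinophil-like cells, most cells of a class lay in different clusters on the 2 diets, so a difference within a class sets cells of separate clusters side by side. Of the Ly6Chi class, cluster 2 held 998 of 998 NCD cells and cluster 1 held 1211 of 1213 MCD cells. Of the Ly6Clo class, cluster 9 held 431 of 431 NCD cells and cluster 7 held 483 of 489 MCD cells. The cDC2-like class lay in cluster 4 in NCD (757 of 760) and in clusters 6 and 10 in MCD (501 and 358 of 867). Endothelial-like cells lay mainly in clusters 8 and 13 in NCD (447 and 144 of 604) and 17 and 18 in MCD (110 and 108 of 328), and NK or innate lymphoid-like cells in cluster 16 in NCD (110 of 113) and 20 in MCD (85 of 89). Cluster 0 held most eosinophil-like cells on both diets (153 of 167 and 1232 of 1333). In Ly6Chi monocyte-like cells 16 of 29 tested members rose and 1 fell, where 16.8% of all genes tested were higher and 16.6% lower. In Ly6Clo monocyte-like cells 16 of 26 rose and 1 fell, beside 15.6% and 14.6% of all genes. In cells like cDC2, a type of conventional dendritic cell, 17 of 29 rose and 1 fell, beside 18.3% and 17.9%. In endothelial-like cells, which the CD45 gate would be thought to remove, 14 of 27 rose and 1 fell, beside 16.1% and 13.1%. The member that fell was Hk2 in each of these 4 classes. Its levels were 208 and 190.3 CPM in NCD and 75.8 and 77.8 CPM in MCD in the Ly6Chi class, 171 and 98.4 against 65.0 and 71.8 in the Ly6Clo class, 215 and 222 against 112 and 105 in the cDC2-like class, and 128 and 83.7 against 62.0 and 65.9 in the endothelial-like class. In the Ly6Clo and endothelial-like classes the Hk2 call rested on NCD replicate 1, with adjusted p-values of 0.138 and 0.210 when that library was left out.

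Pkm and Eno1 show how the classes compare. The log2 difference of Pkm was 1.92 ± 0.12 in Ly6Chi monocyte-like, 1.86 ± 0.15 in Ly6Clo monocyte-like, 2.22 ± 0.16 in cDC2-like and 1.41 ± 0.15 in endothelial-like cells. That of Eno1 was 1.92 ± 0.14, 1.94 ± 0.15, 1.74 ± 0.16 and 1.74 ± 0.18. Slc16a3 differed more in level than in direction. It was at 18.8 and 22.4 CPM in NCD and 59.1 and 67.1 CPM in MCD in the Ly6Chi class, 66.7 and 53.0 against 151 and 186 in the Ly6Clo class, and 6.31 and 7.31 against 38.2 and 34.9 in the cDC2-like class. Pgk1 and the 3 pyruvate dehydrogenase genes passed in none of the 4 classes, with unadjusted calls limited to 1 pyruvate dehydrogenase gene in the cDC2-like class. Ldhb had 0 and 2.44 CPM in NCD and 15.8 and 6.60 CPM in MCD in cDC2-like cells, and its call there was lost without either NCD library (adjusted p = 0.292 without replicate 1 and 0.101 without replicate 2).

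**Figure D4:**
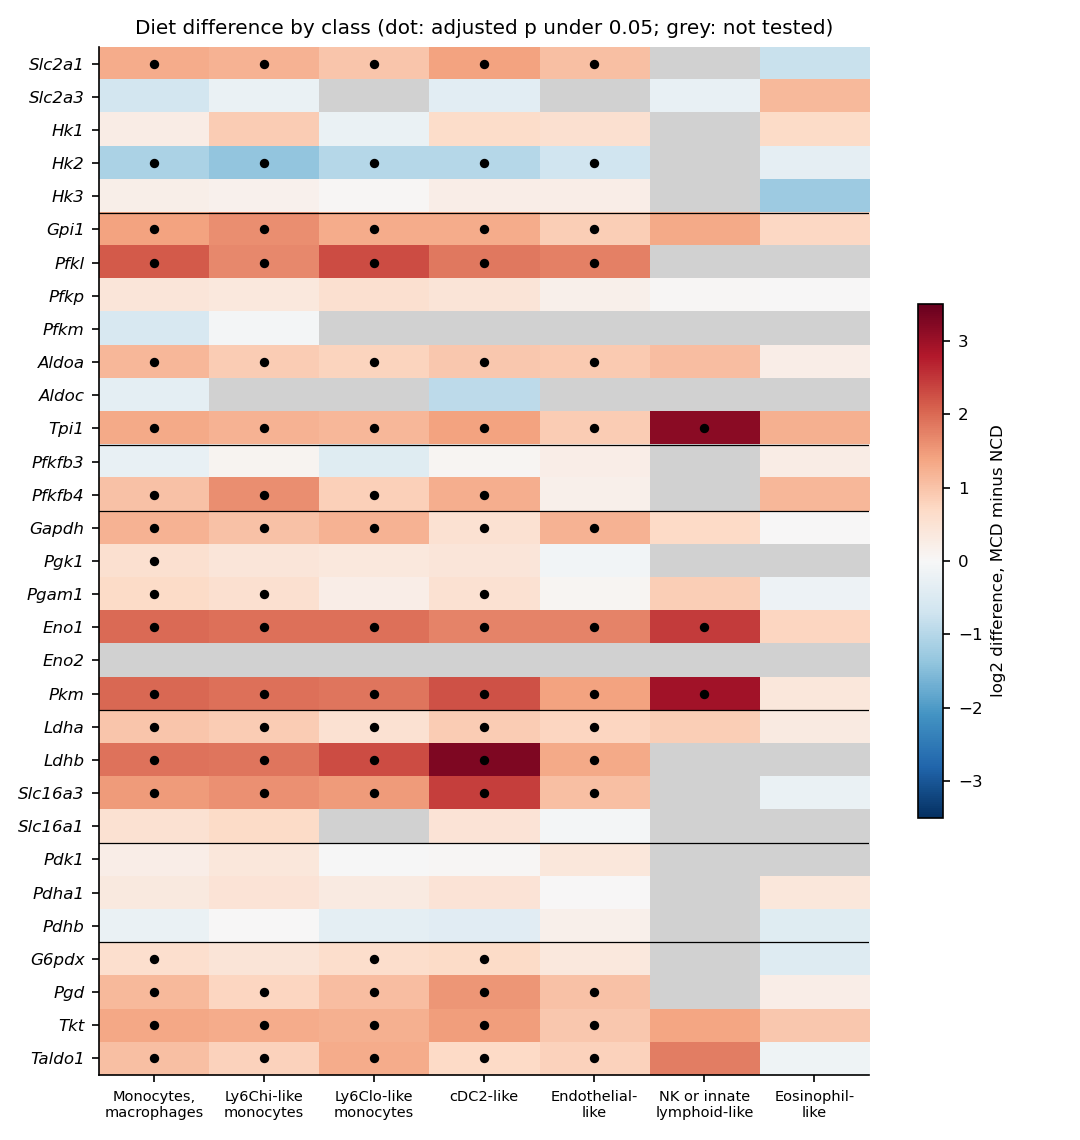
Log2 difference (MCD minus NCD, colour) of each member in the union and in the 6 tested classes; a dot marks a tile past the threshold, and grey tiles were under the filter on low counts. Hk2 is the one row of negative tiles with a dot, and the eosinophil-like column has no dot.

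NK or innate lymphoid-like cells were few (38 to 75 per library) and gave 12 testable members, of which 3 rose and 0 fell, beside 5.14% and 8.10% of all genes tested. At an unadjusted p under 0.05 the counts were 9 higher and 0 lower, with no share of all genes at that level to set beside them. Eno1 was at 70.6 and 27.0 CPM in NCD and 267 and 212 CPM in MCD, Pkm at 47.1 and 13.5 against 226 and 178, and Tpi1 at 0 and 13.5 against 88.0 and 76.2. None of the 3 calls held without NCD replicate 2 (adjusted p = 0.144 for Eno1, 0.119 for Pkm and 0.112 for Tpi1), and leaving out NCD replicate 1 ended the Tpi1 call as well (adjusted p = 0.117).

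Eosinophil-like cells, granulocytes of type 2 immunity, differed in starting level. Their members took 0.485% and 0.391% of UMIs in NCD and 0.498% and 0.459% in MCD, so the diets overlapped, while the shares in the Ly6Chi class were 0.186% and 0.209% in NCD and 0.586% and 0.544% in MCD. By edgeR 0 of 23 tested members rose and 0 fell, beside 0.227% and 0.0523% of all genes tested. At an unadjusted p under 0.05 the counts were 4 higher and 0 lower. The share of all genes at that level is not given, so these counts are not a result about the members. This class was shallow: 118 and 49 NCD cells had a median of 769 and 798 UMIs, against 795 and 538 MCD cells of 1345 and 1260 UMIs. Slc16a3 was at 415 and 305 CPM in NCD and 276 and 351 CPM in MCD, Pkm at 212 and 244 against 299 and 302, and Taldo1 at 1871 and 1129 against 1491 and 1262. Only for Pkm among these 3 genes did the diets not overlap.

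**Figure D5:**
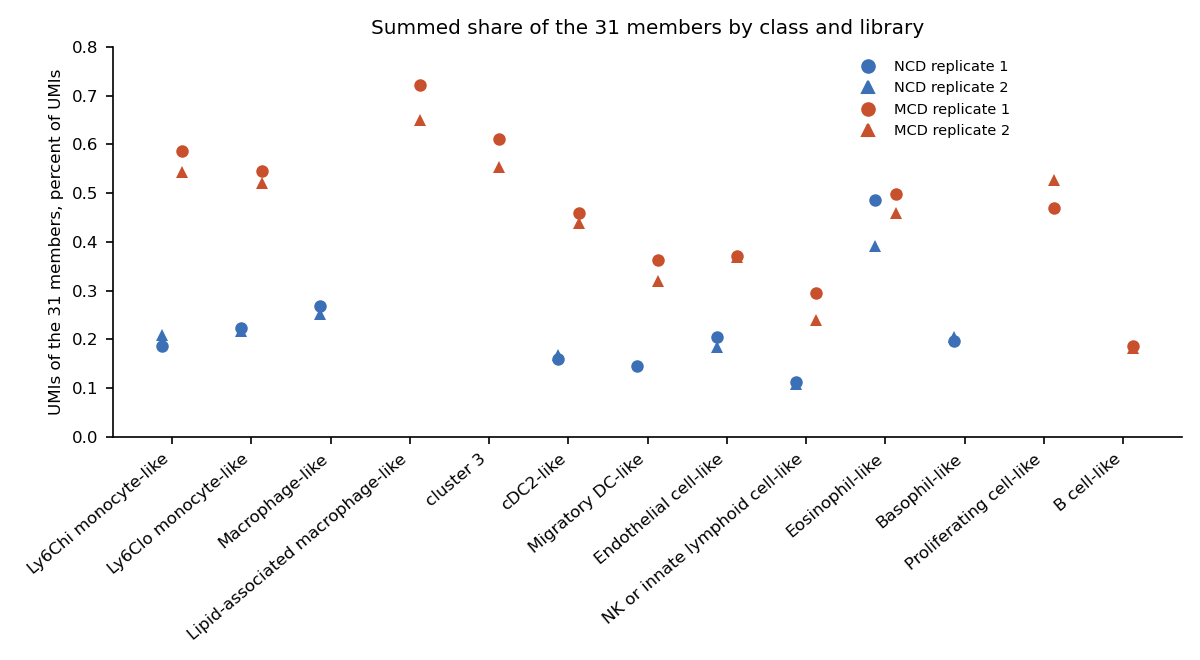
Share of all UMIs taken by the 31 members (percent), by class and library; each point is a library with at least 20 cells of the class. In eosinophil-like cells the NCD points (0.485% and 0.391%) overlap with the MCD points, while in the Ly6Chi, Ly6Clo, cDC2-like, endothelial-like and NK-like classes the diets stand apart.

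Whether the diet effect itself differed between classes was tested with a class-by-diet term and the library as a block. Between Ly6Chi and Ly6Clo monocyte-like cells, 3 members had a larger and 2 a smaller Ly6Chi effect at an unadjusted p under 0.05. No share of all genes at that level stands beside these counts. After adjustment (edgeR) 0 of 27 members had a larger effect in the Ly6Chi class, beside 1.24% of all genes tested. For 1 gene the effect was smaller, beside 5.33% of all genes tested. That gene was Taldo1, at 399 and 405 CPM in NCD and 746 and 678 CPM in MCD in the Ly6Chi class and 272 and 282 against 734 and 639 in the Ly6Clo class. The difference of effects was -0.48 ± 0.12 (adjusted p = 0.00536), and it was lost without MCD replicate 1 (adjusted p = 0.189), without MCD replicate 2 (0.0836), under library totals (0.328) and after thinning to equal totals (0.106).

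Both other class pairs were added after seeing the data. Against eosinophil-like cells, the effect in Ly6Chi monocyte-like cells was larger for 3 of 27 members and smaller for 1, beside 0.840% and 6.20% of all genes tested, with a median over all genes of -0.34. The members were Slc16a3 (1.59 ± 0.36, adjusted p = 6.49e-04), Pkm (1.31 ± 0.35, adjusted p = 0.00661), Slc2a1 (1.70 ± 0.49, adjusted p = 0.0156) and Hk2 (-1.30 ± 0.33, adjusted p = 0.00380). All 4 calls were lost without MCD replicate 1 (adjusted p from 0.144 for Slc2a1 to 0.587 for Hk2) and without MCD replicate 2 (from 0.0685 for Slc16a3 to 0.301 for Pkm). Without NCD replicate 1 the calls of Slc2a1 (adjusted p = 0.598), Slc16a3 (0.136) and Pkm (0.0753) were lost as well. Against endothelial-like cells, 2 of 27 members had a larger effect and 1 a smaller one, beside 2.21% and 7.77% of all genes. These were Gpi1 (0.71 ± 0.20, adjusted p = 0.00795), Pfkfb4 (1.37 ± 0.41, adjusted p = 0.0147) and Hk2 (-0.72 ± 0.21, adjusted p = 0.0150). Leaving out NCD replicate 1 ended the Gpi1 call (adjusted p = 0.363), and the call of Hk2 was lost without NCD replicate 2 (0.431) or MCD replicate 2 (0.132), and that of Pfkfb4 without NCD replicate 1 (0.109), NCD replicate 2 (0.200) or MCD replicate 2 (0.0882).

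Levels per class followed the isozyme and not only the diet. The values in this paragraph are CPM of the class sums, without TMM scaling, in classes with at least 20 cells in each library of the diet (8 in NCD and 11 in MCD). Pfkfb3, Slc2a1, Slc2a3, Slc16a3, Hk2 and Gapdh were among the variable genes that built the clusters, so none of this is tested. Migratory dendritic cell-like cells held the highest Pfkfb3 level in MCD (402 and 405 CPM), with the next class, eosinophil-like cells, at 52.4 to 60.1 CPM. In NCD replicate 1 the 39 migratory dendritic cell-like cells had 354 CPM. The same cells had Eno2 at 25.0 and 27.3 CPM in MCD, where no other class exceeded 4.11 CPM. Slc2a3 was highest in basophil-like cells in NCD (194 and 265 CPM) and in eosinophil-like cells in MCD (104 and 123 CPM), the latter overlapping with NK-like cells. Slc16a3 and Taldo1 were highest in eosinophil-like cells on both diets, at 309 to 384 and 267 to 333 CPM for Slc16a3 and at 1143 to 1731 and 1196 to 1445 CPM for Taldo1. Lipid-associated macrophage-like cells held the highest MCD level of 10 members, among them Gapdh (1350 to 1541 CPM), Aldoa (723 to 779 CPM) and Tpi1 (201 to 231 CPM), while 3 of the 10 overlapped with the unnamed cluster led by Cxcl10, Saa3 and Sod2. These were Pfkl (52.1 to 55.4 against 45.9 to 54.7 CPM), Pkm (617 to 765 against 591 to 681 CPM) and Pgk1 (52.8 to 74.0 against 42.0 to 58.5 CPM). Ldhb was highest in the Ly6Chi class in MCD (59.4 and 59.5 CPM) and Ldha in proliferating cell-like cells (483 to 527 CPM). The members took 0.721% and 0.650% of UMIs in lipid-associated macrophage-like cells and 0.611% and 0.553% in the unnamed cluster, beside 0.187% and 0.182% in B cell-like cells of the same MCD libraries.

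Genes around the pathway, from lists that hold none of the members, are given for the union with their counts of calls. These counts stand beside 21.2% higher and 20.2% lower among all genes tested. Most named genes were picked by the size of their difference, so they do not stand for their list. Of the HIF-1 targets outside glycolysis 5 of 18 tested were higher and 5 lower. Hilpda (5.0 and 8.46 against 30.5 and 40.3 CPM) and Plin2 (101 and 100.3 against 331 and 332 CPM), both lipid droplet proteins, and Vegfa, the angiogenic factor (33.9 and 24.8 against 95.3 and 106 CPM), rose, while Ddit4, an inhibitor of mTOR signalling, fell from 82.8 and 113 to 35.7 and 34.4 CPM. Plin2 also stands on the lipid-associated macrophage list. Of 25 tested regulators of glycolytic genes 7 were higher and 2 lower. Hif1a itself did not pass (113 and 147 against 122 and 129 CPM, log2 difference -0.05 ± 0.13), nor did Myc (-0.32 ± 0.22). Nfe2l2, which encodes the antioxidant regulator NRF2, rose by 0.51 ± 0.09, as did Tfeb (1.36 ± 0.19), a lysosomal regulator, and Egln2 (0.99 ± 0.19), an oxygen sensor that marks HIF for degradation. Txnip, a glucose-induced inhibitor of glucose uptake, fell by 0.88 on the log2 scale, from 246 and 252 to 131 and 139 CPM. Arrdc4, on the same list of regulators, went the other way and rose by 0.89 ± 0.24 (adjusted p = 0.0195 by edgeR).

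The next lists are also to be read beside 21.2% higher and 20.2% lower among all genes tested. Of the citrate cycle genes 7 of 20 were higher and 1 lower. Among the higher were Dlst (1.39 ± 0.15), a subunit of the oxoglutarate dehydrogenase complex, and Mdh2 (0.79 ± 0.11), mitochondrial malate dehydrogenase. Pyruvate entry to mitochondria counted 2 higher and 2 lower of 13. Mpc2, a subunit of the mitochondrial pyruvate carrier, went from 180.0 and 176 to 90.0 and 94.3 CPM (-0.95 ± 0.09), whereas Bsg and Emb, the chaperones of the lactate transporters, rose by 0.55 ± 0.11 and 0.47 ± 0.09. Of the other pentose phosphate and NADPH enzymes 2 were higher and 3 lower of 13. Pgls, between G6pdx and Pgd in the oxidative branch, rose by 0.65 ± 0.10, while Rpe and Rbks, which handle pentose phosphates and ribose, had log2 differences of -0.74 ± 0.15 and -1.13 ± 0.20. Fructose, mannose and hexosamine entry counted 6 higher and 3 lower of 18: Khk, fructokinase, was at 6.67 and 14.7 CPM in NCD and 50.8 and 56.7 CPM in MCD (2.34 ± 0.25), and Gfpt1, the gate of the hexosamine route, had a difference of -0.97 ± 0.13. Gluconeogenesis and glycogen genes counted 3 higher and 1 lower of 15, the serine and glycerol branches 2 higher and 0 lower of 9 (Got1 1.14 ± 0.17 and Got2 0.57 ± 0.13, the aspartate transaminases), and other glycolysis isozymes 1 higher and 0 lower of 9. The median log2 differences of these 9 lists ran from -0.09 to 0.57, beside 0.82 for the members.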

How the data were processed

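The authors deposited UMI counts per gene and cell barcode, for which the submitters' processing notes name Cell Ranger and the build mm10 and the file headers Cell Ranger 3.0.2. How cells were called is not stated there. The members and the gene lists were chosen with earlier results of these data known. The naming of genes outside the members follows a rule: at most 4 per list, past the threshold, with the largest log2 difference and at least 20 CPM, plus Hif1a, Nfe2l2, Myc and Txnip.

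From these counts, barcodes were kept from 200 detected genes upwards and up to 10% mitochondrial UMIs, giving 1735, 1786, 2950 and 3138 cells (NCD replicates 1 and 2, MCD replicates 1 and 2) of libraries with 7518597, 7428431, 32975974 and 37772284 UMIs. No doublet caller was run, and doublets must be taken as present. Counts scaled to 10000 per cell were log transformed, and 2000 variable genes, 30 principal components and 15 neighbours went into Leiden clustering at resolution 1.0 (leidenalg 0.10.2, Python 3.11.15), with no integration. Naming rules were set with the clusters in view, and names rest on transcripts and not on surface proteins.

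The library was the replicate. UMIs summed per library and class were tested with edgeR 4.0.16 (quasi-likelihood F test, TMM, filterByExpr by diet; R 4.3.3, limma 3.58.1), with Benjamini-Hochberg adjustment over all genes tested and a threshold of 0.05, and every adjusted p comes from this test unless DESeq2 (1.42.0) is named. CPM of the tested sums include the TMM scaling. On union counts simulated from the fit's own means and dispersions, with as many genes raised as lowered, the fit recovered 151 of 192 changed genes with 5 false calls. Far fewer genes were changed there than were called between the diets, so the simulation does not cover a shift of that breadth. No label pairs same-numbered replicates. The deviations of NCD and MCD replicate 1 from their diet means had a correlation of 0.00741 over genes, which cannot show if they shared a batch. The alternatives were other scaling, filters, cells, clusters, thinning, a GC correction, DESeq2 and leaving out each library. Positions come from the GENCODE annotation of GRCm38.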

Additional observations from a re-analysis of the deposited data

Results flagged for a closer look

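Diet effects that differed between classes, by the class-by-diet test itself, were picked out. All values are log2 differences of the diet effect in Ly6Chi monocyte-like cells minus that in the other class. Against Ly6Clo monocyte-like cells Taldo1 stood at -0.48. Against eosinophil-like cells Slc2a1 stood at 1.70, Pkm at 1.31, Slc16a3 at 1.59 and Hk2 at -1.30. Against endothelial-like cells Gpi1 stood at 0.71, Pfkfb4 at 1.37 and Hk2 at -0.72. The eosinophil-like and endothelial-like pairs were tested after seeing the data. None of these 8 calls held without each of the 4 libraries in turn, as the adjusted p-values beside each gene in the report show. The diets have 2 libraries each, so single libraries were not tested for standing apart.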

How the results depend on the processing

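No label pairs same-numbered replicates, and a fit with the replicate block called 20 members higher and 1 lower in the union. Over all 10879 genes tested, that fit called 2488 higher and 2347 lower. Over all retained cells 3329 genes were higher and 2922 lower of 12740 tested. Across the 19 alternatives the union count of higher members ran from 12 (at most 5% mitochondrial UMIs, and cells of 3000 to 8000 UMIs) to 22 (library totals, and all retained cells), and from 15 to 19 without each library in turn. The lower count was 2 after thinning, at most 20% mitochondrial UMIs and GC correction, 0 at most 5% mitochondrial UMIs, and 1 without each library. Over all genes the 2304 higher and 2194 lower calls became 4187 and 1107 under library totals, 2197 and 1443 with no filter, 524 and 284 at most 5% mitochondrial UMIs, 770 and 918 in cells of 3000 to 8000 UMIs, 1449 and 1218 without NCD replicate 1, and 1428 and 1202 without NCD replicate 2.

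The member counts in this paragraph have no share of all genes beside them, so they cannot be read as changes particular to the members. In the union, library totals moved the median of all genes from 0.02 to 0.40. By class, library totals gave 8 higher in NK-like cells. Leaving out each library gave 12 to 15 higher and 0 to 1 lower in endothelial-like, 0 to 1 and 0 in eosinophil-like, 14 to 16 and 1 in Ly6Chi, 12 to 16 and 0 to 1 in Ly6Clo, 0 to 4 and 0 in NK-like, and 13 to 18 and 1 to 2 in cDC2-like cells. For the difference of effects from the Ly6Clo class, library totals gave 3 larger and 0 smaller, thinning 0 smaller, and single libraries left out 0 larger and 0 to 2 smaller. From eosinophil-like cells, library totals gave 10 and 0, thinning 0 and 0, and single libraries left out 0 to 5 and 0 to 1. From endothelial-like cells, library totals gave 7 and 0, thinning 1 larger, and single libraries left out 0 to 2 and 0 to 1. With 1 library in a diet its spread is assumed to be that of the other diet. Families with a share over 10 points apart numbered 3 to 4.

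Signs turned for these members, of which one alternative value passed the test (Pfkfb3 0.36 over all retained cells, adjusted p = 0.0469). Slc2a3 was at 0.42 (Leiden resolution 0.5) and from -1.08 to 0.04 without each library, Hk1 at -0.04 to 0.67 without each library and -0.05 (GC correction), Hk3 at -0.43 (GC correction), and Aldoc at 0.04 (library totals) and 0.37 (Leiden resolution 0.5). Pfkfb3 was at 0.13 (library totals) and 0.17 (5% mitochondrial), Pgk1 at -0.42 and Pdha1 at -0.13 (3000 to 8000 UMIs), Slc16a1 at -0.03 to 1.53 without each library, Pdk1 at -0.00 (without lipid-associated cells) and -0.20 (all retained cells), and Pdhb at 0.15 (library totals), 0.02 (all retained cells) and 0.71 (5% mitochondrial). The cause of these changes was not tested. Depth limits the members with few NCD UMIs (Slc2a3, Pfkm, Aldoc, Slc16a1, Pdk1), for which no call does not mean no difference.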
